A study of Mus musculus with 68 samples.

Results

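The uterine response to insulin-like growth factor 1 (IGF1) at 2 h was described in mice whose uterus had been engineered to lose oestrogen receptor alpha (gene Esr1). The members were fixed by the sample labels alone: the 3 arrays of ERaUtcKO uterus taken 2 h after IGF1, set against the 3 arrays of ERaUtcKO uterus given vehicle (V), which makes 6 of the 68 arrays of the series. ERaUtcKO mice carried the genotype Esr1f/f;PgrCre+ on a C57Bl6 background, so that Cre recombinase, driven by the promoter of the progesterone receptor gene, removed the floxed Esr1 allele in cells that express that promoter and their descendants. Cells of the uterus that do not use this promoter may keep Esr1. All mice were ovariectomized females, which removes the ovarian source of oestradiol, and no source used here gives their ages. IGF1 was given either as an intraperitoneal injection of 50 µg in 100 µl PBS or through an intraperitoneal osmotic pump, and the labels do not say which mouse had which route. Vehicle was 100 µl saline.

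The study measured RNA from mouse uteri of 25 groups that differ in Esr1 genotype, in treatment (vehicle, oestradiol or IGF1) and in time. Each sample was hybridised to an Affymetrix whole-transcript array, and its deposited value for a gene is a log2 intensity, so that a step of 1 is a 2-fold difference. Further arrays are used here beside the 6: ERaUtcKO uterus 2 h after oestradiol (E2, 250 ng in 100 µl saline) and 24 h after IGF1, 3 arrays each; wild-type littermates of the same breeding given vehicle (3 arrays) or IGF1 for 2 h (2 arrays); and Ex3aERKO mice, which carry a different null allele of Esr1, given vehicle (2 arrays) or IGF1 for 2 h (2 arrays). Where a group has 2 arrays, a further array had been removed by the authors as an outlier, per the series' design text. The vehicle uteri were taken at 24 h and the IGF1 uteri at 2 h, so the action of IGF1 and the time since injection cannot be told apart in the main comparison; the comparison with E2 at 2 h is matched in time.

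IGF1 binds the receptor tyrosine kinase IGF1R, which acts through the adaptor proteins IRS1 and IRS2 on 2 main branches. The phosphatidylinositol 3-kinase and AKT branch drives FOXO transcription factors out of the nucleus, which switches off their target genes, and activates mTORC1, which favours ATF4 translation, amino acid uptake and ribosome production. The RAS and ERK branch induces immediate-early genes within minutes to hours. In the uterus, IGF1 is known as a stromal growth factor that is itself induced by oestradiol and drives epithelial growth.

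Esr1 itself was read first, as a check of the genotype. Under vehicle the 3 knockout arrays read 11.09, 11.10 and 10.86, and the 3 littermate arrays 12.17, 12.25 and 12.24. The groups did not overlap, and the knockout was lower by a log2 difference of −1.21 (adjusted p = 3.66e-07), so the transcript measured by this probe set was reduced but not absent. No source used here says whether the probe set lies in the deleted part of the gene. After 2 h of IGF1 the knockout arrays read 10.28, 10.47 and 10.45, a difference of −0.62 ± 0.11 (SE) from the knockout vehicle arrays (adjusted p = 9.37e-05), and the difference from littermates given IGF1 was −1.51 (adjusted p = 3.85e-08).

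The arrays of a group resembled each other more than those of the other group: correlations over genes lay between 0.9872 and 0.9948 within the 2 groups and between 0.9701 and 0.9798 across them. Uterine markers were high on all of them, with the stromal gene Dcn at 17.88 to 17.94 and the smooth muscle gene Acta2 at 17.12 to 17.69 under vehicle. Several marker lists of other tissues differed between single arrays. The mean of 9 liver genes ranged from 8.15 to 10.73 under vehicle and from 7.97 to 12.85 after IGF1, with Alb, which encodes serum albumin, at 10.99, 15.07 and 15.27 against 17.32, 10.61 and 10.59. The mean of 9 adipocyte genes ranged from 6.93 to 8.75 and from 7.20 to 9.23. None of the liver or adipocyte genes passed the test. The mean of 10 neutrophil genes ranged from 6.54 to 6.87 under vehicle and from 6.70 to 7.93 after IGF1 (3 called higher, 1 lower), and that of 11 macrophage genes from 7.87 to 8.42 and from 8.31 to 9.34 (3 called higher). No marker list of T and natural killer cells, B cells, mast cells, red cells or pancreas had a gene that passed the test.

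Across the genome, IGF1 at 2 h was accompanied by a wide change in both directions. A gene was called when its limma p-value, adjusted by the Benjamini-Hochberg method over all 30142 genes, was under 0.05 (2-sided). By this rule 8824 genes differed between the 3 IGF1 and the 3 vehicle arrays of the knockout (29.3% of genes tested), 3936 of them higher (13.1%) and 4888 lower (16.2%). At a difference of at least 2-fold, 1648 genes were called (5.47%), of which 852 were higher (2.83%) and 796 lower (2.64%). The values of the 3 IGF1 arrays lay wholly outside the range of the 3 vehicle arrays in 11769 genes (39%), 4906 above it (16.3%) and 6863 below it (22.8%). The 15 largest rises and 15 largest falls named below were picked among called genes with such separation. For them the separation follows from that rule and is no further result. The share of calls that were higher was 44.6%; centring each array on its own median made it 54.3% and quantile normalization 48.9%, so the balance between rises and falls rests on the scaling. The median difference over all genes was −0.041 and the median standard error 0.128. The labels do not say that each array came from a separate mouse, so the p-values measure the spread between samples. This spread was estimated over all 29 arrays of the ERaUtcKO experiment, and a fit of the 6 arrays alone called 6672 genes.

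FOXO target genes formed the most one-sided of the lists that fell. Of 24 members measured, 20 fell and 2 rose, with a median log2 difference of −1.41 against −0.041 over all genes. The muscle-atrophy ubiquitin ligase subunit gene Fbxo32 (atrogin-1) read 14.56, 14.51 and 14.12 on the vehicle arrays and 8.38, 8.76 and 9.30 on the IGF1 arrays. Every IGF1 array was far below every vehicle array, a difference of −5.58 ± 0.30, or 47.9-fold (adjusted p = 2.88e-12), and this was the gene with the largest named fall. In a bulk sample, fewer cells of a type and less RNA per cell cannot be told apart, here or in the results that follow. Klhl24, a kelch-family gene, read 13.69, 13.76 and 13.26 against 9.47, 9.51 and 10.08, a difference of −3.88 ± 0.27 or 14.7-fold (adjusted p = 1.1e-10). The stress-inducible mTORC1 inhibitor gene Sesn1 read 12.31, 12.61 and 12.45 against 9.27, 9.08 and 9.16, a difference of −3.29 ± 0.23 (adjusted p = 1.21e-10), and its relative Sesn3 fell by 2.69 ± 0.18. In all of these genes the vehicle and IGF1 arrays were well separated.

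Other FOXO targets fell over a range of sizes. Pdk4, the kinase that shuts pyruvate out of the mitochondrial oxidation pathway, read 10.45, 10.59 and 10.25 under vehicle and 8.22, 7.37 and 7.30 after IGF1. Cdkn1b, which encodes the cell cycle inhibitor p27, read 11.38, 11.35 and 11.13 against 9.32, 9.10 and 9.45, a difference of −2 ± 0.19. Neither gene's groups overlapped. The cyclin gene Ccng2, the transcription factor gene Klf11 and the PI3K inhibitor gene Pik3ip1 fell by 1.62, 1.6 and 1.59. Txnip, the thioredoxin-binding inhibitor of glucose uptake, read 16.94, 17.20 and 16.26 against 15.23, 15.04 and 15.38 and fell by 1.58 ± 0.29 (adjusted p = 0.000171). Bcl2l11, which encodes the cell death activator BIM, read 8.84, 8.70 and 8.64 against 7.70, 7.53 and 7.80 and fell by 1.05 ± 0.11 (adjusted p = 5.58e-08). The autophagy genes Gabarapl1, Map1lc3b and Ulk1 fell by 1.49, 0.69 and 0.65, and the genes of the FOXO factors themselves also fell, Foxo3 by 1.05 and Foxo1 by 0.62. The members called higher were Gadd45a (0.46, adjusted p = 0.00504) and Bcl6 (0.44, adjusted p = 0.0407). The Bcl6 call was lost under 5 of 14 other settings, with a difference of 0.36 to 0.51 and an adjusted p of up to 0.168; among the arrays it depended on vehicle arrays 1 and 3 and IGF1 arrays 2 and 3. The Gadd45a call was lost in a fit of the 6 arrays alone (adjusted p = 0.0585). Cited2 (−0.41, adjusted p = 0.193) and the muscle ubiquitin ligase gene Trim63 (−0.23, adjusted p = 0.0586) did not pass.

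**Figure D1:**
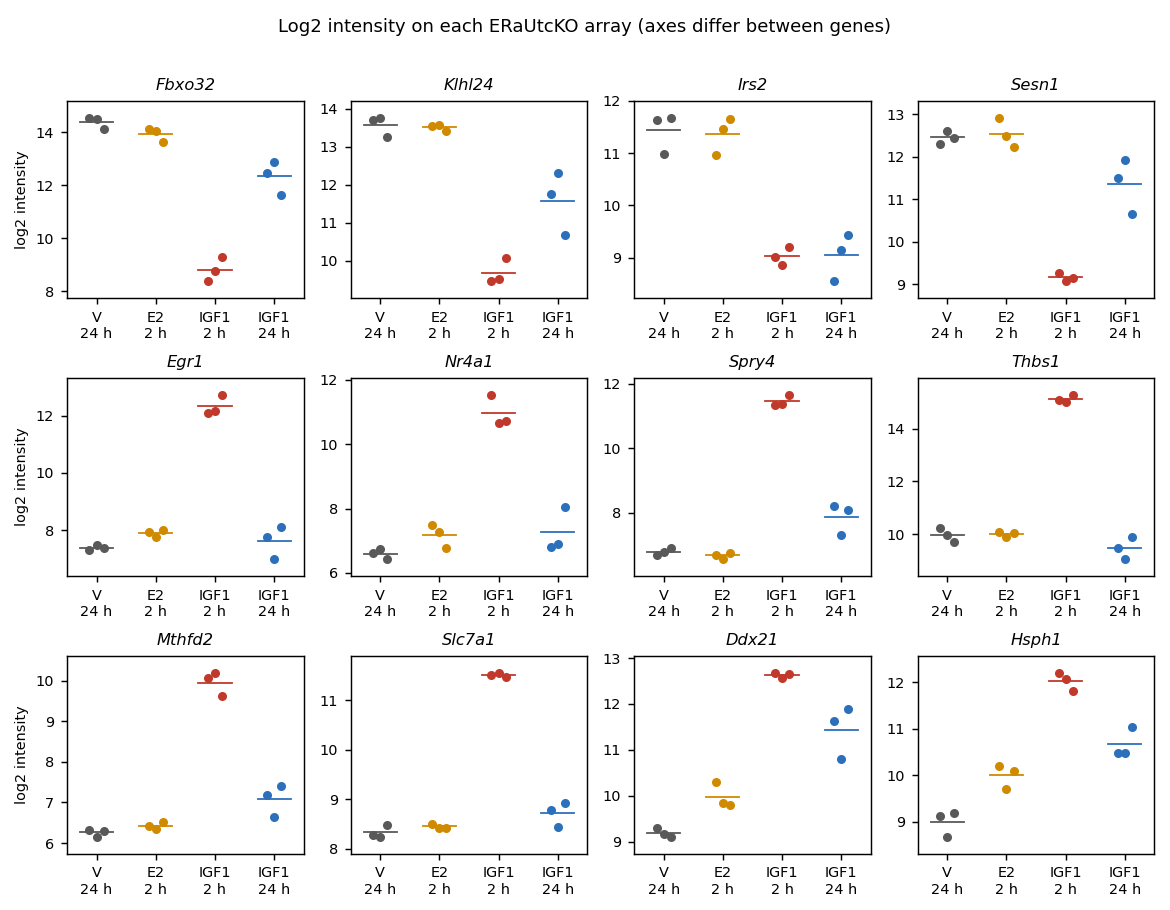
Deposited log2 intensity (vertical axis) of 12 genes on each ERaUtcKO array, in the groups vehicle 24 h, E2 2 h, IGF1 2 h and IGF1 24 h (3 arrays each); points are single arrays and the short bar is the group mean. Fbxo32 stands at 14.12 to 14.56 under vehicle and at 8.38 to 9.30 at 2 h of IGF1, while Egr1 stands at 7.30 to 7.48 and at 12.10 to 12.71.

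The core FOXO element GTAAACA was found, on either strand, in the 250 bases before the RefSeq start of 3 of the 22 list genes with a promoter in the table (13.64%, any promoter of a gene), against 3.54% of all 27025 genes and 3.17% of all 32851 promoters. They are Txnip, Bcl2l11 and Trim63, of which the first pair fell. The promoter windows of Txnip (chr3:96557707-96557956, plus strand) and Bcl2l11 (chr2:128125788-128126037, plus strand) are shown as examples chosen after their values were seen, from RefSeq on GRCm38.p6, with the element in capitals; it begins 121 and 227 bases before the start. A match of letters is a description and no measure of binding.
Txnip: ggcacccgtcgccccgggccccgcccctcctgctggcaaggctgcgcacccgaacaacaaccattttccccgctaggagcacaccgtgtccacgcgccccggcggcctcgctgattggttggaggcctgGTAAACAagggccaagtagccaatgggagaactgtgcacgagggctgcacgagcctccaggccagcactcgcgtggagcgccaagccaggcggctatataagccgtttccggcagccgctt
Bcl2l11: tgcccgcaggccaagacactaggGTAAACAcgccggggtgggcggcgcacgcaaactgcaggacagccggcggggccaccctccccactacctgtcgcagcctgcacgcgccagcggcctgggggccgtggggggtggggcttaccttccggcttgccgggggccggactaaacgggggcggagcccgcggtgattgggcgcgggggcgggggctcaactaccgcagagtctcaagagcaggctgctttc

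The receptor gene Igf1r and the adaptor genes Irs1 and Irs2 fell, while other members of the pathway rose. In the list of the IGF and insulin axis, 6 of 23 measured members rose and 7 fell, a share of calls above the 29.3% background, with a median of 0.07. Irs2, the adaptor gene that FOXO factors also induce, read 11.64, 10.99 and 11.68 under vehicle and 9.01, 8.86 and 9.20 after IGF1. The difference of −2.41 ± 0.23 (adjusted p = 2.04e-08) left no overlap between the groups. Irs1 read 9.78, 10.05 and 9.85 against 8.85, 8.81 and 9.30 and fell by 0.91 ± 0.22 (adjusted p = 0.0021). The receptor gene Igf1r read 12.66, 12.60 and 12.39 against 11.83, 11.69 and 11.80 and fell by 0.78 ± 0.14 (adjusted p = 1.28e-04). Both genes were lower on every IGF1 array.

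The ligand gene Igf1 itself did not pass the test (10.30, 10.35 and 9.95 against 10.32, 10.33 and 10.95; 0.33, adjusted p = 0.273). The related adaptor genes Grb10 and Grb14, whose proteins bind and inhibit the insulin and IGF1 receptors, went opposite ways. Grb10 read 9.03, 8.89 and 8.62 under vehicle and 10.50, 10.27 and 10.34 after IGF1, a rise of 1.52 ± 0.11 (adjusted p = 3.81e-10). Grb14 read 8.56, 8.26 and 8.58 against 7.01, 6.97 and 6.57, a difference of −1.62 ± 0.20 (adjusted p = 7.11e-07). The groups were separate for both genes. Stc2, which encodes an inhibitor of the protease that frees IGF from its binding proteins, rose by 1.08 ± 0.10 (adjusted p = 1.36e-08), and the binding protein gene Igfbp4 rose by 0.98 ± 0.17. The binding protein gene Igfbp3 fell by 0.76 (adjusted p = 0.00845). The signalling genes Pdpk1, Akt1 and Shc1 rose by 0.62, 0.78 and 0.86.

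Immediate-early genes formed the list with the largest median rise. They are called immediate-early factors for short, although the list also holds genes of other kinds, such as Zfp36. Of 25 measured, 19 rose and none fell, with a median of 1.33. Egr1, a zinc-finger factor that growth factors induce through ERK, read 7.30, 7.48 and 7.36 on the vehicle arrays and 12.10, 12.17 and 12.71 on the IGF1 arrays. All 3 IGF1 arrays were far above all 3 vehicle arrays, a rise of 4.94 ± 0.35 or 30.8-fold (adjusted p = 1.49e-10). The orphan nuclear receptor gene Nr4a1 read 6.61, 6.73 and 6.44 against 11.51, 10.67 and 10.72, a rise of 4.37 ± 0.40 (adjusted p = 8.3e-09). Srf, the serum response factor that binds the promoters of many early genes, read 9.14, 9.15 and 9.19 against 12.72, 12.26 and 12.95, a rise of 3.48 ± 0.27 (adjusted p = 6.14e-10). Egr2 read 7.96, 7.89 and 7.85 against 10.99, 10.98 and 11.18, a rise of 3.15 ± 0.13 (adjusted p = 1.32e-13). None of these genes had overlapping groups.

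Zfp36, whose protein tristetraprolin speeds the decay of cytokine mRNAs, read 10.52, 11.09 and 11.04 under vehicle and 13.90, 13.72 and 13.72 after IGF1 (2.89 ± 0.27, adjusted p = 1.49e-08). Ier2 rose by 3.36, Klf10 by 2.28, Nr4a3 by 1.92, Fosl2 by 1.69 and the growth regulator Myc by 1.48. Fos, the best known immediate-early gene, rose by 1.32 (adjusted p = 4.54e-06), a smaller change than that of Egr1 on this scale. Its partner Jun did not pass (0.49, adjusted p = 0.0569), nor did Jund, Btg2, Maff, Mafk and Klf6.

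The serum response element (the CArG box, the binding sequence of SRF) was searched on both strands of the same 250-base windows. It was found in 3 of the 19 immediate-early genes with a promoter in the table (15.79%: Egr2, Srf and Zfp36, any promoter of a gene), against 1.62% of all 27025 genes counted in the same way and 1.47% of all promoters. The promoter of Srf (chr17:46556163-46556412, minus strand) holds 2 boxes, beginning 82 and 62 bases before the start, and that of Zfp36 (chr7:28379229-28379478, minus strand) holds 1, at 58 bases. Both genes rose, Zfp36 being chosen after its values were seen, and the boxes are in capitals in the 2 windows.
Srf: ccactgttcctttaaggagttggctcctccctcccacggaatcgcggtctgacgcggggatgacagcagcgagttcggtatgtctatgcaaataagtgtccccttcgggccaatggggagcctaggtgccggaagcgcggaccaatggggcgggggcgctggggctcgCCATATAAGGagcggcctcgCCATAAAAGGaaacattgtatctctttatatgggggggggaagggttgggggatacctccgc
Zfp36: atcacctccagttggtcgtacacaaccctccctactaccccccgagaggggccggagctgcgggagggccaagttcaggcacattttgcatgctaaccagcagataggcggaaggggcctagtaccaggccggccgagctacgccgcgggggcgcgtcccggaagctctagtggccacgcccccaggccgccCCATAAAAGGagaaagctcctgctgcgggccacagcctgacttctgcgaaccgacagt

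Genes that feed back on ERK signalling rose with the immediate-early genes. Of 18 measured, 11 rose and 1 fell, with a median of 0.78. Spry4, a Sprouty inhibitor of receptor tyrosine kinase signalling, read 6.68, 6.79 and 6.89 under vehicle and 11.34, 11.37 and 11.63 after IGF1. The rise of 4.66 ± 0.24 was 25.2-fold (adjusted p = 1.37e-12), with the IGF1 arrays close to each other. Errfi1, which encodes an inhibitor of the EGF receptor family, read 8.73, 9.20 and 9.39 against 12.56, 12.14 and 12.55 (3.31 ± 0.23, adjusted p = 9.52e-11). The ERK phosphatase gene Dusp6 read 8.07, 8.24 and 8.17 against 11.25, 11.76 and 11.31, a 9.71-fold rise (3.28 ± 0.19, adjusted p = 6.11e-12). For both genes the 2 groups stood apart. Dusp1, Dusp5 and Spry2 rose by 1.47, 1.29 and 1.27. The member that fell was Dusp10, a phosphatase that acts mainly on the stress kinases JNK and p38; it read 8.44, 8.19 and 8.06 against 7.36, 7.17 and 7.56 (−0.86, adjusted p = 5.94e-05).

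Secreted early products and growth factors split by gene. Of 22 measured, 8 rose and 4 fell, beside 13.1% and 16.2% of all genes, with a median of 0.14. The share of falls was near that background. Thbs1, which encodes the matrix protein thrombospondin 1, read 10.22, 9.96 and 9.72 under vehicle and 15.08, 15 and 15.26 after IGF1. It was the gene with the largest rise among those named, 5.14 ± 0.37 or 35.4-fold (adjusted p = 2.22e-10). The matricellular gene Ccn1 (Cyr61) read 8.47, 8.67 and 8.82 against 12.75, 12.14 and 12.05 (3.66 ± 0.50, 12.7-fold, adjusted p = 3.78e-06). The angiogenic factor gene Vegfa read 9.33, 9.59 and 9.56 against 12.26, 12.53 and 12.33 (2.88 ± 0.13, 7.36-fold, adjusted p = 4.72e-13). Each was higher on all 3 IGF1 arrays than on any vehicle array. Hbegf, an EGF receptor ligand gene, rose by 1.20 (adjusted p = 1.64e-05). Lymphatic growth factor genes fell: Vegfc by 0.81 (adjusted p = 0.000533) and Vegfd by 0.77 (adjusted p = 0.0243). The Vegfd call was lost under 4 of 14 other settings (adjusted p up to 0.0978), among them those without vehicle array 2, vehicle array 3 or IGF1 array 1. Endothelial markers were given beside these: 1 of 10 was called higher (Kdr) and 3 lower (Emcn, Tek and Cldn5), beside 13.1% and 16.2% of all genes. Their mean was 8.82 to 9.05 under vehicle and 8.68 to 8.82 after IGF1, and their part in the result was not tested.

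Other genes among the 15 largest rises came from several lists or from none. Tnfrsf12a, the receptor for the cytokine TWEAK, read 7.58, 7.69 and 7.48 under vehicle and 12.75, 12.42 and 12.37 after IGF1 (4.93 ± 0.34, 30.5-fold, adjusted p = 1.12e-10). Itga5, the alpha 5 subunit of the fibronectin receptor, read 8.67, 8.45 and 8.35 against 12.47, 12.19 and 12.85 (4.01 ± 0.17, 16.1-fold, adjusted p = 1.32e-13). Cdkn1a, the cell cycle inhibitor p21, read 8.38, 8.35 and 8.04 against 12.57, 12.29 and 11.46 (3.85 ± 0.33, 14.4-fold, adjusted p = 3.42e-09). By the rule that picked them, all of these were separate between the groups. The third IGF1 array was the lowest of the IGF1 arrays for Cdkn1a. Kpna2, an importin of nuclear transport, rose 13.6-fold (7.62, 7.35 and 7.81 against 11.49, 11.45 and 11.15, adjusted p = 2.36e-11). Nes, the intermediate filament protein nestin, rose 11.3-fold (7.32, 7.22 and 7.28 against 10.65, 10.56 and 11.09, adjusted p = 5.03e-13). The mitochondrial carrier gene Slc25a48 rose 14.2-fold (7.76, 8.09 and 8.76 against 12.32, 11.81 and 11.98, adjusted p = 1.7e-07). For all 3 the lowest IGF1 array was above the highest vehicle array, as that rule required.

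The ATF4 programme of amino acid supply rose as a group. Of 21 measured enzymes and regulators, 17 rose and 1 fell, with a median of 0.86. Mthfd2, a mitochondrial one-carbon enzyme, read 6.32, 6.16 and 6.30 under vehicle and 10.05, 10.18 and 9.61 after IGF1 (3.69 ± 0.15, adjusted p = 1.14e-13). Asns, asparagine synthetase, read 7.43, 7.59 and 7.74 against 10.68, 10.98 and 10 (2.96 ± 0.22, 7.79-fold, adjusted p = 2.73e-10). Chac1, which degrades glutathione, read 5.50, 5.70 and 5.55 against 8.66, 8.54 and 8.48 (2.97 ± 0.15, adjusted p = 1.33e-12). None of the groups overlapped, and the Chac1 vehicle values lay below 5.759, the 95th percentile of the antigenomic background probe sets, so that its vehicle level may be a bound rather than a measure. The gene of the factor itself, Atf4, read 9.34, 9.06 and 9.49 against 11.66, 11.78 and 11.48 (2.34 ± 0.19, adjusted p = 1.71e-09). The serine enzyme gene Psat1 rose by 2.15 and the stress factor gene Ddit3 by 2.11. Vldlr, a lipoprotein receptor gene, fell by 0.75 (adjusted p = 0.00121), while Pck2, Fgf21 and Cth did not pass. The C/EBP-ATF element TGATGNAAT was found before 2 of 18 genes of this list (11.11%: Nupr1 and Fgf21), before 0.91% of all genes and in 0.82% of all promoters.

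Of 18 amino acid transporter genes 10 rose and 5 fell, with a median of 0.69. Slc7a1, the cationic amino acid transporter, read 8.28, 8.25 and 8.48 under vehicle and 11.51, 11.55 and 11.48 after IGF1, a 9.03-fold rise (3.17 ± 0.12, adjusted p = 7.58e-14). Slc7a5, the large neutral amino acid transporter LAT1, read 9.47, 9.55 and 9.88 against 12.51, 12.94 and 12.74 (3.10 ± 0.16, adjusted p = 2.15e-12), and its heavy chain gene Slc3a2 rose by 1.53. The cystine importer gene Slc7a11 read 6.81, 6.96 and 6.48 against 8.56, 8.88 and 9.41 (2.20 ± 0.34, adjusted p = 2.09e-05). Each was higher on every IGF1 array than on any vehicle array. The members that fell were Slc43a1 (−1.03, adjusted p = 1.08e-06), Slc7a8 (−0.71), Slc7a7 (−0.58), Slc36a4 (−0.36) and Slc7a2 (−0.31). Of 17 aminoacyl-tRNA synthetase genes, whose enzymes load amino acids onto tRNA, 13 rose and 1 fell, with a median of 0.96. Tars read 9.51, 9.65 and 9.43 against 12, 12.20 and 11.59, a 5.28-fold rise (adjusted p = 6.39e-11), and Cars read 7.51, 7.47 and 7.51 against 9.92, 9.98 and 9.71 (2.37 ± 0.12, adjusted p = 8.14e-13). Both were separate between the groups. Qars fell by 0.27 (adjusted p = 0.0205), a call that was lost under 5 of 14 other settings, among them centring and the fits without vehicle array 2, IGF1 array 1 or IGF1 array 2, with an adjusted p of up to 0.13.

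Of 22 ribosome biogenesis genes, 20 rose and none fell, with a median of 0.93; Dkc1 and Npm1 did not pass. Ddx21, an RNA helicase of the nucleolus, read 9.29, 9.16 and 9.11 under vehicle and 12.67, 12.57 and 12.65 after IGF1, a 10.9-fold rise (3.44 ± 0.19, adjusted p = 6.11e-12). Heatr1, Nolc1 and Bysl, factors of ribosomal RNA transcription and processing, rose by 2.31, 2.28 and 2.17. Ddx21 varied less among the 3 IGF1 arrays than among the 3 vehicle arrays, and the 2 groups were far apart. In the polyamine list 3 of 5 rose: Srm, spermidine synthase (7.63, 7.40 and 7.52 against 9.51, 9.60 and 9.22), Azin1, which relieves the inhibition of ornithine decarboxylase (1.87 ± 0.11, adjusted p = 8.53e-12), and Odc1, ornithine decarboxylase itself (0.81, adjusted p = 0.00335).

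Of 16 heat-shock genes, 13 rose and none fell, with a median of 0.94. Hsph1, a large heat-shock protein, read 9.12, 8.68 and 9.18 under vehicle and 12.20, 12.08 and 11.82 after IGF1 (3.04 ± 0.18, adjusted p = 1.49e-11), with no overlap between the groups. The stress-inducible chaperone gene Hspa1a read 6.43, 6.32 and 6.52 against 7.65, 7.27 and 7.57, a 2.11-fold rise (adjusted p = 5.29e-06), and the co-chaperone gene Stip1 rose by 1.67. Hspa8 read 18.62 to 18.77 and 19.49 to 19.53, close to the 19.9315 at which the table ends, so its rise may be understated. The heat-shock element GAANNTTC was found before 5 of the 13 genes of this list with a promoter in the table (38.46%), before 7.73% of all genes and in 6.69% of all promoters. The windows of 2 of the 5, Hspd1 and Hspe1, overlap on opposite strands and hold the same site. It begins 104 bases before the start of Hspa1a (chr17:34972157-34972406, minus strand), a gene chosen after its values were seen, and is in capitals here.
Hspa1a: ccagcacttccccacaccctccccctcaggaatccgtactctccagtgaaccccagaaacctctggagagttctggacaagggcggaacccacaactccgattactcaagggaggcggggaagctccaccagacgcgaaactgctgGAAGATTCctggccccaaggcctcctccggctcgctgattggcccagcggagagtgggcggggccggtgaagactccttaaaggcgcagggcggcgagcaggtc

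Among endoplasmic reticulum stress genes, 14 of 16 rose and 1 fell, with a median of 0.65. Hspa5, the chaperone BiP, read 10.97, 10.94 and 10.88 under vehicle and 12.62, 12.76 and 12.58 after IGF1, a 3.31-fold rise (1.73 ± 0.12, adjusted p = 2.11e-10), and the transcription factor gene Xbp1 rose by 1.23 (adjusted p = 4.13e-08). The groups of Hspa5 were separate. Dnajb9, a BiP co-chaperone, went the other way, from 10.98, 10.76 and 11.55 to 10.25, 10.37 and 10.06 (−0.87, adjusted p = 2.52e-05).

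Lipid and glucose enzymes moved less. Of 17 cholesterol synthesis genes 7 rose and none fell, with a median of 0.30. Hmgcs1, an early enzyme of the pathway, read 8.51, 8.61 and 8.88 under vehicle and 10.56, 11.06 and 10.38 after IGF1 (2.00 ± 0.23, adjusted p = 2.76e-07), and Idi1 rose by 1.74 ± 0.29. No fatty acid synthesis gene of 9 passed the test. Scd1, the stearoyl-CoA desaturase, read 11.76, 15.59 and 14.89 against 16.65, 14.88 and 14.19, so its groups overlapped and its standard error was 1.13 (1.16, adjusted p = 0.525). Fasn, the fatty acid synthase, read 8.23, 10.26 and 9.90 against 11.52, 10.27 and 9.97. For both genes, and for Alb, vehicle array 1 was the lowest of the vehicle arrays and IGF1 array 1 the highest of all 6. The part of liver or adipocyte RNA in these values was not tested. Of 17 glucose uptake and glycolysis genes 10 rose and 2 fell, beside 13.1% and 16.2% of all genes, with a median of 0.28. Pfkfb3, which makes the activator of phosphofructokinase, read 8.40, 9.42 and 8.45 against 10.58, 9.47 and 9.93 (1.24 ± 0.32, adjusted p = 0.00392); in a fit of the 6 arrays alone the adjusted p was 0.0501. Its highest vehicle array and lowest IGF1 array differed little. Pgk1 rose by 0.99, while the kinase gene Pdk1 fell by 1.12 (adjusted p = 7.97e-10) and the muscle phosphofructokinase gene Pfkm by 0.62.

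Cell cycle genes changed in single members rather than as groups. In the list of G1 and cyclin-dependent kinase genes 4 of 18 rose and 4 fell, beside 13.1% and 16.2% of all genes. Rb1, the retinoblastoma protein gene, read 12.28, 11.71 and 12.53 under vehicle and 10.12, 10.24 and 10.35 after IGF1 (−1.94 ± 0.26, adjusted p = 3.03e-06). Its relative Rbl2 fell by 0.80, Cdk6 fell by 1.24, and the cyclin gene Ccnd2 rose by 0.89 (adjusted p = 2.2e-05). Rb1 was lower on every IGF1 array on the brightest of its probe sets, and with its probe sets averaged the difference was −0.8. Of 19 mitosis genes none was called (by limma; Mki67, the proliferation marker, 0.48, adjusted p = 0.548; Bub1b −0.61, adjusted p = 0.145), and 2 were called in a fit of the 6 arrays alone. Of 21 DNA replication genes 4 rose and 2 fell, together near the 29.3% of all genes that were called. Tk1, thymidine kinase, read 7.80, 7.82 and 7.69 against 9.59, 9.18 and 9.58 (1.68 ± 0.11, adjusted p = 9.2e-11), and Pcna, the polymerase clamp, read 12.43, 12.23 and 12.78 against 13.55, 13.69 and 13.27 (1.02 ± 0.15, adjusted p = 9.92e-06). Both were higher on all IGF1 arrays, while Rfc3 fell by 0.45 (adjusted p = 0.000179). Pola1 fell by 0.31 (adjusted p = 0.0142), a call lost under 4 of 14 other settings, among them centring and the fits without vehicle array 1 or IGF1 array 3, with an adjusted p of up to 0.0906.

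Of 18 genes listed as oestrogen-responsive in the uterus, 3 rose and 4 fell, beside 13.1% and 16.2% of all genes, with a median of −0.06. The list was chosen with earlier results of these data known, so its counts are description and no independent support. Greb1, a classical target of the oestrogen receptor, read 6.28, 6.31 and 6.20 under vehicle and 6.19, 6.28 and 6.32 after IGF1, a difference of 0.00 (adjusted p = 0.994) with overlapping groups. The progesterone receptor gene Pgr, whose promoter drives Cre here, read 12.76, 12.92 and 13.10 against 12.05, 12.80 and 12.11 (−0.61 ± 0.17, adjusted p = 0.00865). The second IGF1 array lay inside the vehicle range, and the call was lost under 4 of 14 other settings (−0.85 to −0.47, adjusted p up to 0.0884): the 6 arrays alone, and without vehicle array 3, IGF1 array 1 or IGF1 array 3. The large falls in this list were Rgs2, a regulator of G-protein signalling (14.85, 15.02 and 15.28 against 12.05, 11.96 and 11.45; −3.23 ± 0.19, adjusted p = 1.14e-11), and the transcription factor gene Sox4 (−2.62 ± 0.20, adjusted p = 7.66e-10). The Wnt agonist gene Rspo3 read 15.93, 15.73 and 15.55 against 12.67, 12.86 and 12.74 (−2.98 ± 0.24, adjusted p = 1.5e-09). All of these fell on each IGF1 array. The rises were Cdkn1a, described above, the placental growth factor gene Pgf (0.90, adjusted p = 1.4e-04) and Wnt4 (0.30).

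Glucocorticoid-responsive genes rose and circadian clock genes moved both ways. Of 19 glucocorticoid-responsive genes 12 rose and 2 fell, with a median of 0.86. Zbtb16, a transcription factor gene with a strong glucocorticoid response, read 8.26, 8.31 and 8.28 under vehicle and 12.19, 11.69 and 11.75 after IGF1 (3.59 ± 0.27, adjusted p = 3.7e-10). Fkbp5, a co-chaperone of the glucocorticoid receptor, rose by 1.96 and the kinase gene Sgk1 by 1.83. The 2 groups of Zbtb16 were far apart; Klf15 fell by 0.44, a call that was lost in a fit of the 6 arrays alone and without vehicle array 1 (adjusted p up to 0.0628).

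Of 16 clock genes 7 rose and 7 fell. Nr1d1, which encodes the clock repressor REV-ERB alpha, read 13.43, 14.13 and 13.87 under vehicle and 10.73, 10.67 and 11.03 after IGF1 (−2.99 ± 0.29, adjusted p = 2.04e-08). Per3 read 11.10, 11.20 and 10.74 against 8.86, 8.54 and 8.57 (−2.35 ± 0.23), and the output factor gene Dbp fell by 2.29. The opposite members were Cry1 (1.38 ± 0.12, adjusted p = 5.44e-09), Nfil3 (1.24), Per2 (1.16), Clock (1.15), Bhlhe40 (0.91) and Per1 (0.86). Clock genes follow the time of day, and no source used here gives the hour at which uteri were taken; time of day and IGF1 cannot be told apart for them.

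Of 22 inflammatory cytokine and chemokine genes 6 rose and 1 fell, beside 13.1% and 16.2% of all genes, with a median of 0.24. The monocyte chemokine genes Ccl7 (6.28, 6.51 and 6.70 against 8.87, 8.92 and 8.51; 2.27 ± 0.35, adjusted p = 1.95e-05) and Ccl2 (7.74, 7.81 and 7.78 against 10.08, 10.27 and 9.62; 2.21 ± 0.35, adjusted p = 2.19e-05) rose on all IGF1 arrays. Ptgs2, the inducible prostaglandin synthase, rose by 2.10, and Cxcl12 fell by 0.64 (adjusted p = 0.006). Beside them, the neutrophil gene S100a8 read 9.89, 8.92 and 8.79 against 10.06, 13.63 and 12.46 (2.85, adjusted p = 0.137) and the macrophage gene Lyz2 15.56, 15.61 and 13.46 against 14.47, 15.67 and 17.54 (1.01, adjusted p = 0.213). S100a8 was higher on every IGF1 array than on any vehicle array, by little on the first, while the groups of Lyz2 overlapped. As given above, 3 of 10 neutrophil markers were called higher and 1 lower, and 3 of 11 macrophage markers higher, beside 13.1% and 16.2% of all genes. S100a8 was the only neutrophil marker with separate groups, so the groups of the called ones overlapped. Those of S100a9 overlapped too (2.09, adjusted p = 0.225). The part of leukocyte RNA in the chemokine values was not tested.

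Markers of the uterine layers moved in part. Of 12 smooth muscle genes 5 rose and 1 fell, and their mean rose from between 12.53 and 12.89 to between 13.25 and 13.39. Des, the muscle intermediate filament desmin, read 11.61, 11.80 and 11.17 under vehicle and 14.37, 14.20 and 14.39 after IGF1 (2.80 ± 0.26, adjusted p = 1.44e-08). Smtn, Lmod1, Tagln and Cnn1, genes of the contractile apparatus, rose by 1.65, 1.25, 1.23 and 1.18. Acta2 (0.17, adjusted p = 0.563) and Myh11 (−0.07, adjusted p = 0.833), the muscle actin and myosin, did not pass, and Pcp4 fell by 0.69. In the epithelial list 5 of 13 rose and 3 fell, among them the keratin genes Krt19 (1.36, adjusted p = 4.09e-05) and Krt18 (−1.11, adjusted p = 0.00434), which went opposite ways. In the stromal list 3 of 11 rose and 2 fell. Of all genes, 13.1% rose and 16.2% fell, which is the background for each marker list here. Of 8 skeletal muscle markers Tnnt3 (1.71, adjusted p = 5.77e-10) and Acta1 (0.78, adjusted p = 0.00448) rose, with a list mean of 6.26 to 6.32 under vehicle and 6.40 to 6.65 after IGF1, and of 7 mesothelial markers Krt19 alone rose (8.72 to 9.01 and 8.82 to 9.21); the part of either tissue in the smooth muscle values was not tested. Krt18, Krt19 and the muscle genes show that members of a marker list did not move together.

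**Figure D2:**
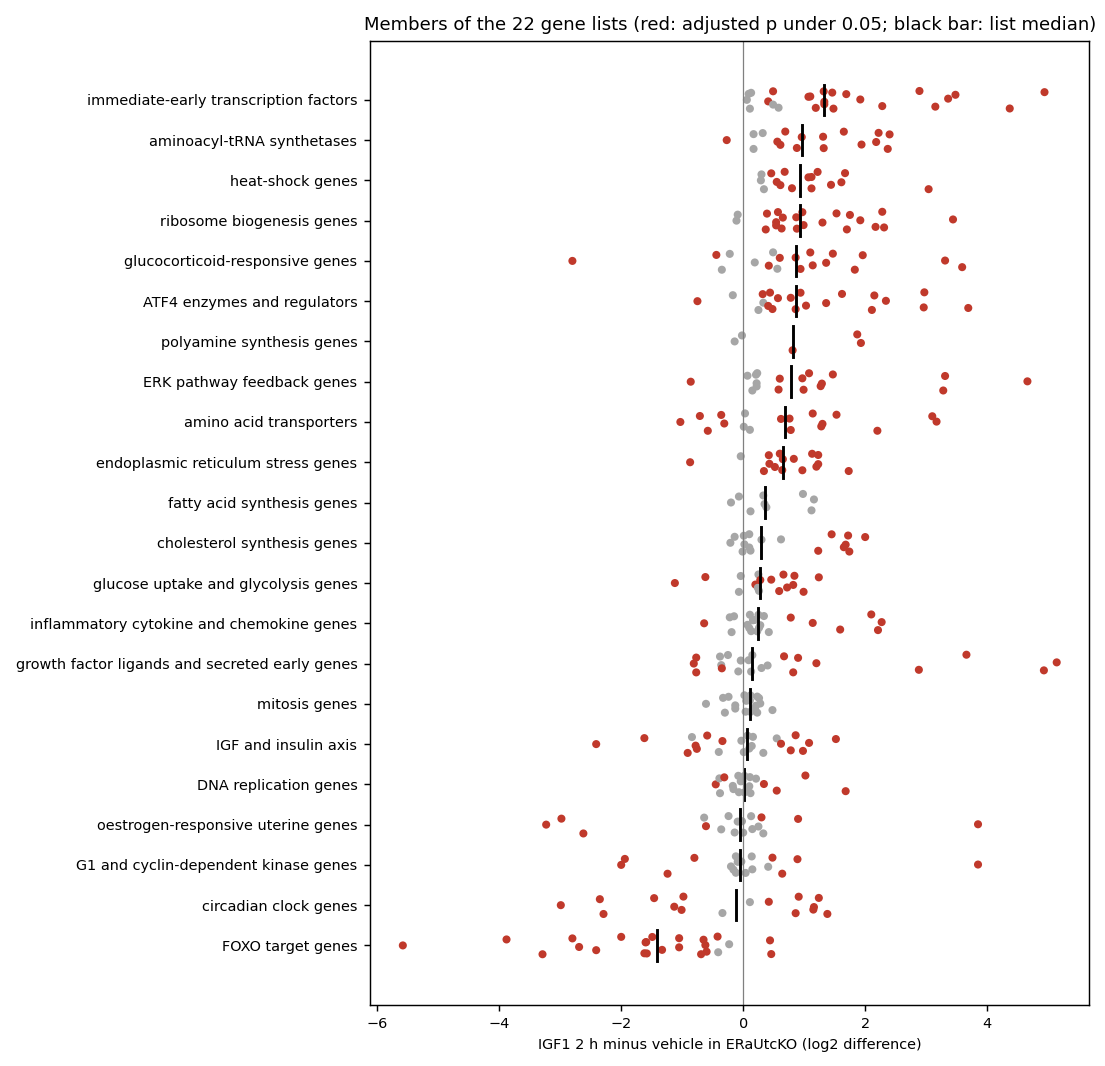
Log2 difference between IGF1 2 h and vehicle in ERaUtcKO uterus (horizontal axis) for each measured member of the 22 gene lists (rows); red points passed an adjusted p under 0.05 and black bars are list medians. FOXO targets have the lowest median (−1.41) and immediate-early factors the highest (1.33).

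Genes in none of the lists were also among the 15 largest falls. Arrdc3, an arrestin-related gene, read 12.64, 12.62 and 12.63 under vehicle and 9.64, 9.46 and 8.84 after IGF1 (−3.31 ± 0.16, 9.93-fold, adjusted p = 7.21e-13). Fam214a read 11.29, 11.30 and 10.89 against 7.70, 7.86 and 7.68 (−3.42 ± 0.20, adjusted p = 9.9e-12), and Trp53inp1, a p53-induced gene that takes part in autophagy, read 9.95, 9.77 and 9.88 against 6.67, 6.83 and 7.30 (−2.93 ± 0.20, adjusted p = 1.26e-10). The RNA-binding gene Rbm24 read 13.91, 13.73 and 13.85 against 11.15, 10.81 and 10.88 (−2.88 ± 0.19). In each of the 4 genes every IGF1 array lay below every vehicle array, as the rule that picked the 15 required. Cir1 and Zfp874b fell by 2.97 and 3.08. Speer4e, Speer4c and Speer4d also fell (−3.49, −3.11 and −2.90), but these near-identical copies may share probe signal, so their separate values are uncertain.

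Oestradiol at the same time point in the same genotype gave a far smaller response, and IGF1 differed from it directly. The comparisons that follow share the IGF1 2 h or the vehicle arrays with the main one, so the values are set side by side. The vehicle uteri were taken at 24 h, so E2 at 2 h minus vehicle also differs in the time since injection. E2 at 2 h differed from vehicle in 148 genes (0.491%), 120 higher (0.398%) and 28 lower (0.0929%), and 30 of them, all higher, reached 2-fold (0.0995%; none was lower by 2-fold, 0%). IGF1 differed from E2 at 2 h in 7393 genes (24.5%), 3345 higher (11.1%) and 4048 lower (13.4%); the higher share of calls was 45.2%, and 55.6% after centring. In this time-matched comparison 20 of 24 FOXO targets were lower and 1 higher (median −1.38), and 17 of 25 immediate-early factors were higher and none lower (median 1.09). Fbxo32 differed by −5.13, with the E2 arrays at 14.14, 14.04 and 13.64, and Thbs1 by 5.09 ± 0.37 (adjusted p = 4.68e-10), with the E2 arrays at 10.10, 9.91 and 10.04. Egr1 read 7.95, 7.77 and 8.02 after E2. The E2 arrays of these genes stood near the vehicle arrays. Against E2, 18 of 21 ATF4 genes were higher and 1 lower (median 0.75), 13 of 17 aminoacyl-tRNA synthetase genes were higher (median 0.90) and 18 of 22 ribosome biogenesis genes were higher (median 0.77). Other lists differed less from E2 than from vehicle. Heat-shock genes were higher in 11 of 16 (median 0.59), and 4 of the 16 were higher after E2 than under vehicle. Endoplasmic reticulum stress genes were higher in 9 of 16 and lower in 1 (median 0.43). Glucose uptake and glycolysis genes were higher in 4 of 17 and lower in 2 (median 0.22).

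Glucocorticoid-responsive genes differed from E2 in both directions: 7 of 19 members were higher and 5 lower after IGF1 than after E2, with a median of −0.09. Against vehicle, 7 of 19 were higher after E2 (median 0.88), and 12 were higher and 2 lower after IGF1 (median 0.86). Either treatment and the time since injection cannot be told apart in these differences. Zbtb16 read 12.50, 12.25 and 11.06 after E2, which overlapped with the IGF1 arrays (IGF1 minus E2 −0.06, adjusted p = 0.928). Tsc22d3, the gene of the glucocorticoid-induced leucine zipper, read 8, 8.39 and 8.40 under vehicle, 9.56, 9.29 and 9.22 after E2 and 8.98, 8.63 and 8.98 after IGF1, so it was lower after IGF1 than after E2 (−0.49, adjusted p = 0.00588). Both genes were above vehicle on all E2 and all IGF1 arrays. Clock genes still differed, with 6 of 16 higher and 7 lower. Among oestrogen-responsive genes, 9 of 18 were lower and 1 higher after IGF1 than after E2 (median −0.68). Over vehicle, 6 of 18 were higher after E2. As the list was chosen with earlier results of these data known, these counts are description only. The gap did not always go with a rise after E2. Rgs2, the member with the largest gap (−2.5), stood at −3.23 after IGF1 and −0.73 after E2 against vehicle, the latter not called. Greb1 read 8.30, 7.64 and 7.84 after E2 (IGF1 minus E2 −1.67, adjusted p = 4.68e-10). Mad2l1, a spindle checkpoint gene, read 10.61, 9.90 and 10.14 after E2 and 8.63, 8.86 and 8.22 after IGF1 (−1.65, adjusted p = 7.7e-06), and the kallikrein gene Klk1 differed by −1.80 (adjusted p = 0.000294). All 3 E2 arrays were above all 3 IGF1 arrays for Greb1 and Mad2l1.

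**Figure D3:**
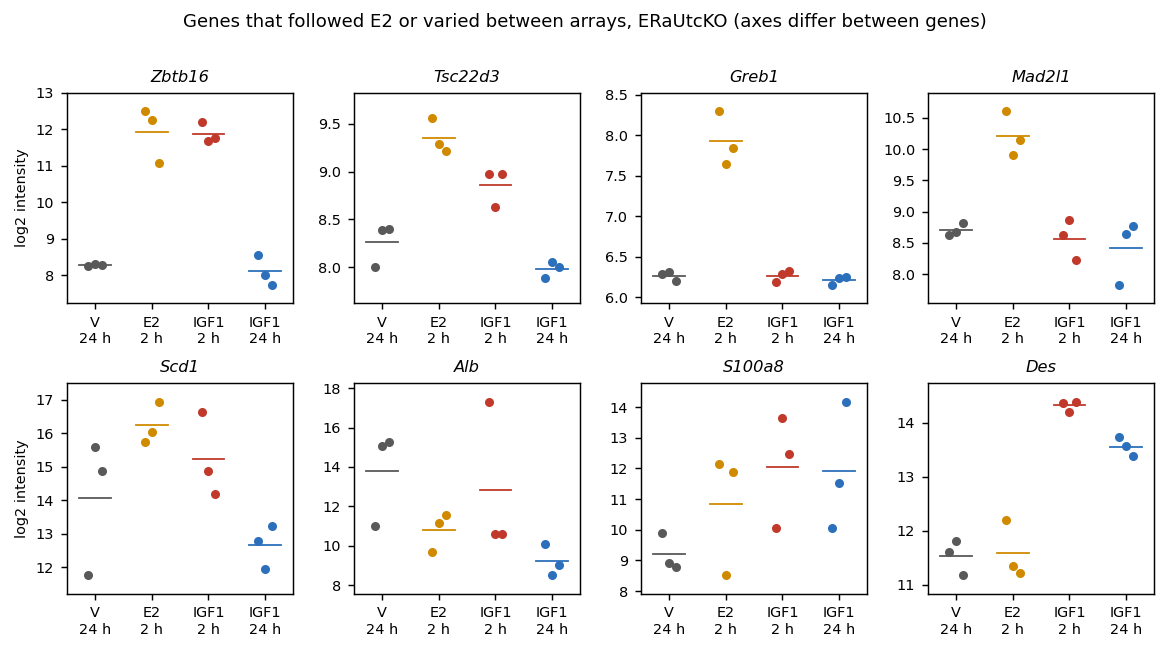
Deposited log2 intensity of 8 genes on each ERaUtcKO array, in the groups vehicle 24 h, E2 2 h, IGF1 2 h and IGF1 24 h; points are arrays and bars group means. Zbtb16 is high after both treatments at 2 h, Greb1 is raised only on the E2 arrays of the 4 groups plotted (7.64 to 8.30), and Alb and S100a8 scatter between arrays of the same group.

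At 24 h of IGF1 the knockout uterus showed another pattern, against vehicle arrays taken at the same time. IGF1 at 24 h differed from vehicle in 9765 genes (32.4%), 5080 higher (16.9%) and 4685 lower (15.5%), and from IGF1 at 2 h in 9542 genes (31.7%), 5599 higher (18.6%) and 3943 lower (13.1%). Immediate-early factors had returned: 20 of 25 were lower at 24 h than at 2 h and none higher (median −1.30), and against vehicle 2 were higher and 2 lower (median 0.08). Egr1 read 7.76, 7 and 8.12 and Thbs1 9.46, 9.07 and 9.91 at 24 h, both near their vehicle values, and Tnfrsf12a was lower than at 2 h by 4.45. FOXO targets remained below vehicle in part, with 19 of 24 lower and none higher (median −0.69). Fbxo32 read 12.48, 12.89 and 11.64 at 24 h, between its vehicle and 2 h values (−2.05 against vehicle). Irs2 read 8.55, 9.14 and 9.44 and was as low at 24 h (−2.40 against vehicle) as its 2 h arrays (24 h minus 2 h 0.02, adjusted p = 0.965). Sesn3 was back at its vehicle level within the error (−0.17, adjusted p = 0.512), whereas Igf1r was lower still (−1.27).

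Several growth and biosynthesis lists also had most of their members above vehicle at 24 h. Against vehicle, 17 of 17 aminoacyl-tRNA synthetase genes (median 1.06), 19 of 22 ribosome biogenesis genes (median 0.74) and 14 of 16 heat-shock genes (median 0.90) were higher at 24 h. Ddx21 read 11.62, 10.81 and 11.88 (2.25 above vehicle), a little below its 2 h values. The endoplasmic reticulum list had 14 of 16 higher and none lower (median 1.15), and the cholesterol list 15 of 17 higher (median 0.74), with Hmgcs1 at 2.23 above vehicle. DNA replication genes were higher in 13 of 21 and lower in none (median 0.56). Mitosis genes were higher in 4 of 19 and lower in 1, beside 16.9% and 15.5% of all genes, so the higher share was near the background. Mcm3, a helicase subunit of replication, was 1.25 above vehicle and Mki67 1.48 (adjusted p = 0.0219). The binding protein gene Igfbp5 did not pass at 2 h (0.55, adjusted p = 0.189), although it did without IGF1 array 1 (0.91, called). It read 16.10, 15.99 and 15.32 at 24 h, 4.03 above vehicle (adjusted p = 1.49e-09). Igfbp5 and the troponin gene Tnnt2 (15.70, 15.39 and 14.85) were the named genes with the largest differences of 24 h over 2 h, 3.48 and 3.49.

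**Figure D4:**
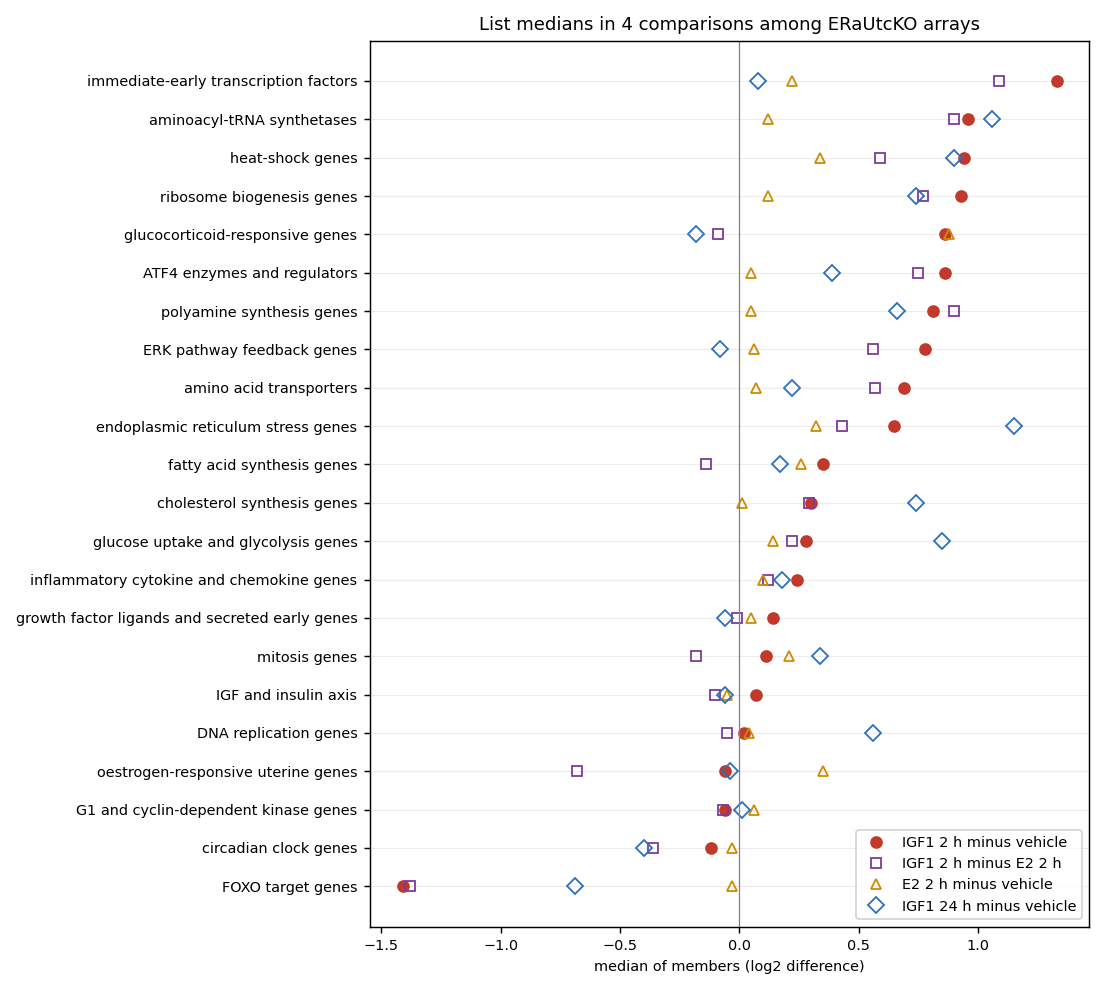
Median log2 difference of each of the 22 lists (rows) in 4 comparisons within ERaUtcKO uterus: IGF1 2 h minus vehicle, IGF1 2 h minus E2 2 h, E2 2 h minus vehicle and IGF1 24 h minus vehicle; the comparisons share arrays. FOXO targets stand at −1.41, −1.38, −0.03 and −0.69 in that order, and glucocorticoid-responsive genes at 0.86, −0.09, 0.88 and −0.18.

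The same treatment of wild-type littermates allows the response to be compared with and without the Cre deletion of Esr1. In littermates IGF1 at 2 h differed from vehicle in 6288 genes (20.9%), 3058 higher (10.1%) and 3230 lower (10.7%), with 2 IGF1 arrays; the count was 3530 without the second of them. The higher share of calls was 48.6%, and 67.7% after centring, which moved the median difference of all genes from −0.082 to 0.02. Of the 852 genes that rose at least 2-fold in the knockout, 836 (98.1%) had the same sign in littermates and 769 (90.3%) were called higher there, against 10.1% of all genes; of all 3936 higher calls of any size, 2526 (64.2%) were called higher there. Of the 796 that fell at least 2-fold, 787 (98.9%) had the same sign and 649 (81.5%) were called lower, against 10.7%; of all 4888 lower calls, 2349 (48.1%) were called lower there. The FOXO list had 20 of 24 lower and 1 higher (median −1.24), and the immediate-early list 15 of 25 higher and none lower (median 0.85). Fbxo32 fell by 4.76 in littermates.

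The difference between the 2 responses was tested as an interaction, knockout minus littermate. It called 154 genes (0.511%), 100 with a higher value in the knockout (0.332%) and 54 with a lower one (0.179%), and 3105 genes had an unadjusted p under 0.05. No FOXO target, ERK feedback gene or ribosome biogenesis gene was among them. With 0.511% of all genes called, a list of this size would rarely hold a call, so their absence says little. Most other lists, such as the heat-shock and mitosis genes, held none either. The count ranged from 84 to 204 when single arrays were left out: it was 85 without littermate vehicle array 1, 101 without littermate vehicle array 2, 89 without littermate IGF1 array 1, 84 without knockout vehicle array 2 and 87 without knockout vehicle array 3.

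Among genes with the larger value in the knockout were amino acid genes. Slc7a1 differed by 1.53 ± 0.18 (adjusted p = 9.28e-05), Slc7a5 by 1.75 ± 0.25 (adjusted p = 0.000689) and Chac1 by 2.07 ± 0.23 (adjusted p = 2.73e-05). In the lists, 4 of 21 ATF4 genes (Chac1, Mthfd2, Psat1 and Sesn2), 4 of 18 amino acid transporters (Slc7a1, Slc7a5, Slc7a11 and Slc3a2) and 1 of 17 aminoacyl-tRNA synthetases (Cars, 1.24 ± 0.17, adjusted p = 0.000672) were called, all with the higher value in the knockout. Slc7a11 started lower in the knockout: littermate vehicle arrays read 9.77, 10.97 and 11.26, a knockout difference of −3.92 (adjusted p = 2.7e-07), and littermate IGF1 arrays read 10.46 and 10.33, inside the range of the littermate vehicle arrays. Its interaction of 2.47 ± 0.51 (adjusted p = 0.0254) lost the call under 6 of 17 other settings (adjusted p up to 0.0977). Nes (1.63 ± 0.25, adjusted p = 0.00138), Tktl1, a transketolase-like gene (1.75 ± 0.23, adjusted p = 0.000237), and Stc2 (0.85 ± 0.15, adjusted p = 0.00881) kept their calls under all 17 settings.

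Early genes also differed in size. Thbs1 read 10.59, 10.77 and 10.96 on littermate vehicle arrays and 12.35 and 13.62 on littermate IGF1 arrays, so it rose in both genotypes with an interaction of 2.93 ± 0.56 (adjusted p = 0.0122). Egr1 had an interaction of 2.66 ± 0.52 (adjusted p = 0.0167) and Egr2 of 1.72 (adjusted p = 6.27e-05). The 2 littermate IGF1 arrays were unlike each other for Thbs1. Without the first of them the interaction of Thbs1 was 2.30 (adjusted p = 0.125), of Egr1 1.65 (adjusted p = 0.129), of Itga5 1.31 (adjusted p = 0.0641; 1.42 ± 0.26 with all arrays, adjusted p = 0.00882) and of Mthfd2 1.12 (adjusted p = 0.0765; 1.26 ± 0.23 with all arrays, adjusted p = 0.00885), so these 4 calls were lost without that array. The Egr1 call was also lost without littermate vehicle array 1 (2.55, adjusted p above 0.05). Without the second littermate IGF1 array the interaction was 3.57 for Thbs1 and 3.67 for Egr1.

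Several genes responded in littermates and much less, or not detectably, in the knockout. Sgms2, a sphingomyelin synthase, read 8.90, 8.99 and 9.36 under vehicle and 12.50 and 12.48 after IGF1 in littermates, and 8.14, 8.38 and 8.40 and then 9.26, 9.12 and 9.32 in the knockout (interaction −2.48 ± 0.21, adjusted p = 8.23e-07). The amino acid transporter gene Slc6a14 read 6.71, 6.91 and 6.6 and then 9.16 and 9.27 in littermates, and 6.56, 6.65 and 6.76 and then 6.85, 6.99 and 7.06 in the knockout (−2.17 ± 0.20, adjusted p = 4e-06). The mucosal chemokine gene Ccl28 read 7.96, 8.32 and 8.24 and then 9.68 and 10.25 in littermates, and 7.07, 7.13 and 6.44 and then 6.57, 6.68 and 6.77 in the knockout (−2 ± 0.37, adjusted p = 0.0108). In each of these 3 genes both littermate IGF1 arrays stood above all other arrays given. Npl, an enzyme of sialic acid breakdown, read 6.58, 6.77 and 6.63 and then 9.10 and 11.15 in littermates (−2.39 ± 0.50, adjusted p = 0.0265), and Adgrg7, an adhesion receptor gene, differed by −2.08 ± 0.46 (adjusted p = 0.0359). The calls of Npl and Adgrg7 were lost under 7 and 10 of 17 settings, with an adjusted p of up to 0.172 and 0.225; the interaction of Npl was −1.37 without littermate IGF1 array 2 and −3.41 without array 1. The call of Ccl28 was lost without littermate IGF1 array 2 (−1.72, adjusted p = 0.0851). Rgs2 (−1.54 ± 0.29, adjusted p = 0.0111) and Rbm24 (−1.49 ± 0.28, adjusted p = 0.0131) fell further in the knockout; Rgs2 lost the call without littermate IGF1 array 2 (−1.45, adjusted p = 0.0665) and Rbm24 without littermate IGF1 array 1 (−1.41, adjusted p = 0.0809). Sgms2 and Slc6a14 were called under all 17 settings.

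**Figure D5:**
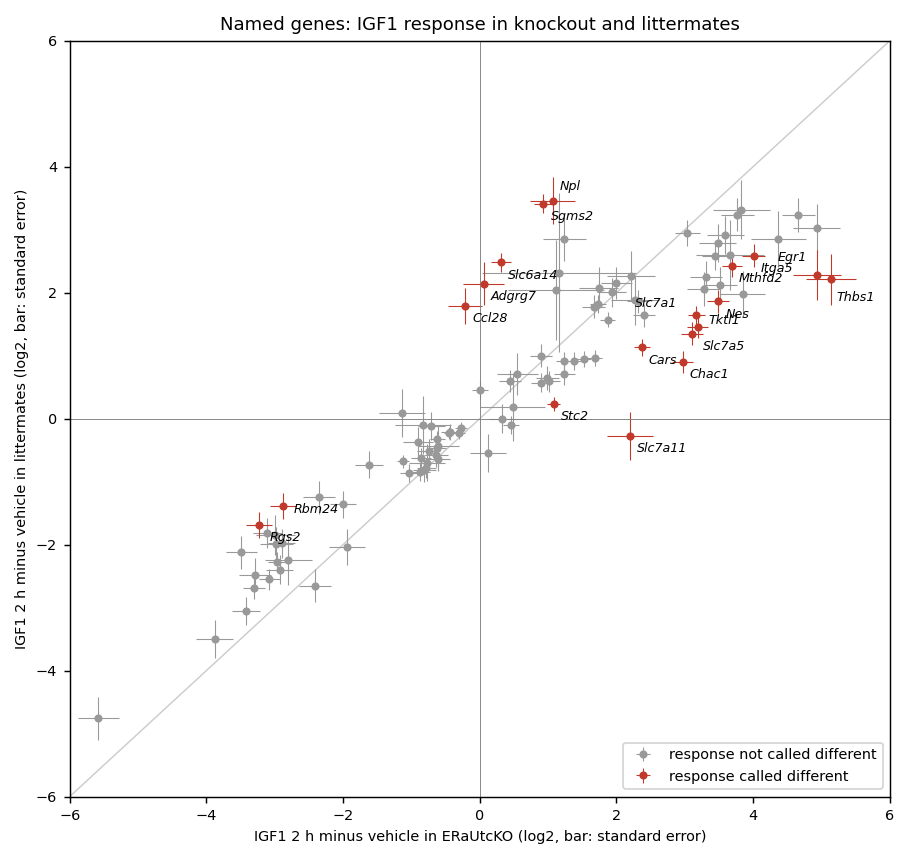
Log2 response to IGF1 at 2 h of the named genes in ERaUtcKO uterus (horizontal axis) and in wild-type littermates (vertical axis), with SE bars; the diagonal marks equal responses, and red labelled points passed the interaction test. Thbs1 lies at 5.14 and 2.21, and Slc6a14 and Sgms2 lie above the diagonal.

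Ex3aERKO mice, labelled Esr1-null and carrying no PgrCre in their label, gave a comparison on separate arrays. IGF1 at 2 h differed from vehicle in 4730 genes there (15.7%), 2594 higher (8.61%) and 2136 lower (7.09%), with 2 arrays a group. Of the 852 genes that rose at least 2-fold in ERaUtcKO, 846 (99.3%) had the same sign and 720 (84.5%) were called higher in Ex3aERKO, against 8.61% of all genes; of all 3936 higher calls, 1991 (50.6%) were. Of the 796 that fell, 754 (94.7%) had the same sign and 575 (72.2%) were called lower, against 7.09%; of all 4888 lower calls, 4135 (84.6%) had the same sign and 1743 (35.7%) were called lower. FOXO targets were lower in 17 of 24 and higher in 1 (median −1.04), immediate-early factors higher in 14 of 25 (median 0.84), ATF4 genes higher in 15 of 21 (median 1.17) and ribosome biogenesis genes higher in 18 of 22 (median 0.97). Thbs1 rose by 4.22 ± 0.27 (adjusted p = 1.87e-08). Pdk4 (−0.04) and Zbtb16 (1.22, adjusted p = 0.197) did not pass in Ex3aERKO, and whether they differ from ERaUtcKO was not tested.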

How the data were processed

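Total RNA was extracted with Trizol and cleaned on columns, labelled with the Affymetrix WT Plus kit and hybridised to 1 array per sample, per the labels' protocols. The authors deposited 1 table of log2 intensities for 72688 probe sets; no source used here gives the normalization, and a low value cannot be told from background. Of the probe sets, 30604 name 1 gene; symbols were updated through RefSeq (827 changed) and the brightest probe set was kept where a gene had several (355 genes), which left 30142 genes. Antigenomic probe sets (23) gave the background level.

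Linear models were fitted with limma 3.58.1 (R 4.3.3) on the 29 arrays of the ERaUtcKO experiment, with 1 mean per group; Ex3aERKO arrays were fitted with their own experiment. Genes were called at a Benjamini-Hochberg adjusted p under 0.05. Replicate numbers were not taken to pair the samples: deviations of same-numbered vehicle and IGF1 arrays correlated at −0.328, −0.056 and −0.272. Over all groups of the experiment, 126 such correlations ran from −0.328 to 0.223, and 15 were over 0.1. Whether same-numbered arrays shared a batch was not tested.

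The members, the 22 gene lists (403 of 438 genes measured) and the 15 marker lists were chosen with earlier results of these data known. The genes named were the 15 largest rises and falls called with separate groups (leaving out predicted and small RNA genes), 8 pathway genes, the 2 furthest in each direction per list, and the 5 largest per direction in the interaction, E2 and 24 h comparisons; any other gene was picked after its values were seen. Promoters are the RefSeq table of GRCm38.p6, read over the 250 bases before the start; 316 of 391 list genes matched. Alternatives were other array sets, centring, quantile normalization, a filter at the antigenomic level, averaged probe sets, a trended and robust fit, a replicate block and each array left out.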

Additional observations from a re-analysis of the deposited data

Results flagged for a closer look

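The genes below were singled out among the 102 named genes. Their response to IGF1 at 2 h differed between ERaUtcKO and wild-type littermates in a test of the difference itself (limma interaction, adjusted p under 0.05). The test called 154 genes in all, and others among them, such as Egr2, are not listed here. Values are knockout minus littermate log2 responses. The response was higher in the knockout for Thbs1 (2.93), Egr1 (2.66), Slc7a11 (2.47), Chac1 (2.07), Tktl1 (1.75), Slc7a5 (1.75), Nes (1.63), Slc7a1 (1.53), Itga5 (1.42), Mthfd2 (1.26), Cars (1.24) and Stc2 (0.85). It was lower in the knockout for Sgms2 (−2.48), Npl (−2.39), Slc6a14 (−2.17), Adgrg7 (−2.08), Ccl28 (−2), Rgs2 (−1.54) and Rbm24 (−1.49). In Rgs2 and Rbm24 the lower value is a deeper fall, while in Sgms2, Slc6a14 and Npl the littermate rise was the larger. The arrays behind them are 3 and 3 in the knockout and 3 and 2 in littermates.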

How the results depend on the processing

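No called value of the 102 named genes changed sign under the alternatives run; for the other genes counts alone were kept, and 7815 of the 8824 calls were shared with the same sign after centring. The 8824 calls of the main comparison became 6672 with the 6 arrays alone, 8216 with the 15 knockout arrays, 8482 after centring, 8933 after quantile normalization and 7606 to 8171 when single arrays were left out. With the replicate number as a block, which the check of pairing did not support, the counts were 8667 for the main comparison, 126 for the interaction, 7265 for IGF1 minus E2, 9330 for 24 h minus 2 h and 6028 for littermates; the block moved none of them by over 1.5 times. Leaving out single arrays took the interaction from 154 to between 84 and 204, the littermate count from 6288 to between 3530 and 7312, and the mitosis list from 0 to between 0 and 1; the mitosis count was 2 with the 6 arrays alone. The cause of these moves was not tested, beyond the fewer arrays. Of the 90 named genes called in the main comparison, 80 kept their call under all 14 alternatives and 10 lost it under at least 1 (Bcl6, Gadd45a, Klf15, Mtln, Npl, Pfkfb3, Pgr, Pola1, Qars and Vegfd). Of the 19 named genes called in the interaction, 9 kept the call under all 17. Low signal limits genes near the antigenomic level of 5.759; 19818 genes lay above it on average.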

Other observations

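Among the largest rises, Tas2r143, a bitter taste receptor gene, read 8.05, 7.82 and 7.79 under vehicle and 11.87, 11.12 and 11.21 after IGF1 at 2 h in the knockout (3.51 ± 0.25, adjusted p = 1.65e-10). Its neighbours on chromosome 6, ordered by the RefSeq table and examined after its value was seen, also rose. From Zyx (1.56) and Epha1 (1.23) through Tas2r143, Tas2r135 (3.28), Tas2r126 (1.93), Olfr458 (2.66) and Olfr457 (1.30) to Olfr456 (2.13), 8 consecutive measured genes were called higher with separate groups. The genes on both sides, Fam131b (−0.12) and Olfr455 (0.18), did not pass. The rise was not particular to this knockout. All 8 genes were also called higher in Ex3aERKO, with Tas2r143 at 3.0. In littermates Tas2r143 rose by 2.12, and all of the 8 but Tas2r126 (0.63) and Olfr457 (0.33) passed. By value the rise was larger in the knockout than in littermates for all 8. The limma interaction called Olfr456 (1.41, adjusted p = 0.0166) and none of the others, Tas2r143 included (1.39, adjusted p = 0.112). Olfr457 averaged 5.69 under vehicle in the knockout, below the antigenomic level of 5.759. Zyx encodes the focal adhesion protein zyxin, whereas the receptor genes belong to chemosensory families. At 24 h of IGF1 Tas2r143 was back at 5.96, 6.58 and 6.39, below its vehicle arrays.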
